A study of Homo sapiens with 13 samples.

Results

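Replication fork direction was examined at 7 genes whose products copy DNA at the fork, join the copied pieces or supply the nucleotides: PCNA, POLE, POLD1, FEN1, LIG1, RRM1 and RRM2. The genes were taken by name from the 19974 protein-coding genes of chromosomes 1 to 22 and X. For each gene the windows over its RefSeq span and 500 kb either side were read in 13 TrAEL-seq libraries of PC9, a lung adenocarcinoma cell line driven by mutant EGFR. TrAEL-seq captures free DNA 3′ ends, which accumulate at replication forks, and the excess of one strand over the other gives the prevailing fork direction. There were 3 libraries of untreated cells, 2 after 7 days, 2 after 14 days and 4 after 28 days in 500 nM osimertinib (an EGFR inhibitor), and 1 library from each of 2 resistant lines, named 5 and 10. Each resistant line goes back to a single cell of PC9 and was kept in 500 nM osimertinib, so line, clone and library cannot be told apart. By the design text, cultures taken at day 28 were not proliferating, whereas untreated cells and resistant lines were growing. Day 28 replicates 3 and 4 carry a conflicting treatment label of 7 days; they are placed by their titles, and the day 28 calls are given without them too. No label says that replicates were separate cultures, so p-values here measure only how far these libraries vary, and part of that spread may be technical.

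PCNA is the ring-shaped clamp that holds polymerases on DNA. POLE encodes the catalytic subunit of DNA polymerase epsilon, which synthesises most of the leading strand, and POLD1 that of polymerase delta, which synthesises the lagging strand in Okazaki fragments. FEN1 trims the flap at the start of each fragment and LIG1 seals the nick that is left. RRM1 and RRM2 encode the large and small subunits of ribonucleotide reductase, the enzyme that makes deoxyribonucleotides from ribonucleotides. These genes are transcribed most strongly around S phase under E2F factors. The values below describe the strand excess over the genes themselves, read as fork direction, not how much of each product the cells made.

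Polarity runs from -100 to 100 percent in 20 kb windows, and positive values were taken as rightward forks (toward higher coordinates). That sign was assigned after the data were seen, because rises of the untreated profile over 60 kb were steeper than falls; turning it would exchange the directions and leave distances from 0 as they are. A rise from negative to positive marks an initiation zone, from which forks leave both ways, and a fall marks a termination zone, where they meet. The measures made per gene were the mean polarity of the windows over the gene, the step (mean of 3 windows right of the gene minus that of 3 windows left of it), and the locus amplitude, the slope of a library's windows within 500 kb on the profile of the untreated libraries, leaving out the library itself. All 7 genes had a mean and a step in every library and 6 had a locus amplitude. Across the genome the untreated libraries had amplitudes of 0.862 to 1.10 relative to their mean, the 8 osimertinib libraries 0.278 to 0.714, line 5 0.304 and line 10 0.684. Day 7 replicate 1 had a value in 61.4% of windows, against 81.8% to 93.4% in the other libraries. The sources used here do not give read counts, so the depth behind a value is unknown.

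Fork direction was set against the strand of each gene. Untreated forks ran against transcription at PCNA and POLE and with it at RRM1 and LIG1, the 4 genes with the strongest polarity. The 250 bases before the transcription start of these 4 genes (RefSeq, GRCh38.p14, 5′ to 3′ on the gene's strand) are shown because they mark the end from which transcription enters each gene; capitals mark E2F-type words.
PCNA, chr20:5126623-5126872, minus strand: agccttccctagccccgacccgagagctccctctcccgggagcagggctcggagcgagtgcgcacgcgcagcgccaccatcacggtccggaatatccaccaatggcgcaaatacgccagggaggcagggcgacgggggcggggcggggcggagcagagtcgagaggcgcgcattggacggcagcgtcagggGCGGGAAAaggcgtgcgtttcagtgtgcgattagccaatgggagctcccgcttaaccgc
POLE, chr12:132687343-132687592, minus strand: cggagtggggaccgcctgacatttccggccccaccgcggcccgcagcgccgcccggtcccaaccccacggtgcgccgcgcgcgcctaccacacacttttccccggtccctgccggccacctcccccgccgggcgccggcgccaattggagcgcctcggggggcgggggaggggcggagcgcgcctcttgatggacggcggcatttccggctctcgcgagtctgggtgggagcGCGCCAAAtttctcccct
RRM1, chr11:4094435-4094684, plus strand: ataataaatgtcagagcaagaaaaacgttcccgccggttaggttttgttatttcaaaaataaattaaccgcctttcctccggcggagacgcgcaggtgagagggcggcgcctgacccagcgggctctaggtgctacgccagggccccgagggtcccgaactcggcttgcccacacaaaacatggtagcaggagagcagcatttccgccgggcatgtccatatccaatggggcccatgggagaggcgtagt
LIG1, chr19:48170345-48170594, minus strand: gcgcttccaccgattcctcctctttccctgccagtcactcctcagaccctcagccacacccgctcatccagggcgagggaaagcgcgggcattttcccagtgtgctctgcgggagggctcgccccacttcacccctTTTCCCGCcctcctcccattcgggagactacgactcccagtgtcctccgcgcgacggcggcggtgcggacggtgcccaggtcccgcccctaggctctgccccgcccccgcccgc
The words searched on both strands were TTTCCCGC, TTTGGCGC, TTTCGCGC and TTTGCCGC. PCNA and LIG1 held TTTCCCGC, PCNA on the opposite strand, and POLE held TTTGGCGC on the opposite strand. Another RefSeq promoter entry of PCNA, chr20:5119959-5120208, held none of the words. Such a word stood in 772 of 22156 RefSeq promoter windows of this length (3.48%) and in 3 of the 10 entries of the 7 genes. A match is a description of letters, not evidence that a factor binds there.

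**Figure D1:**
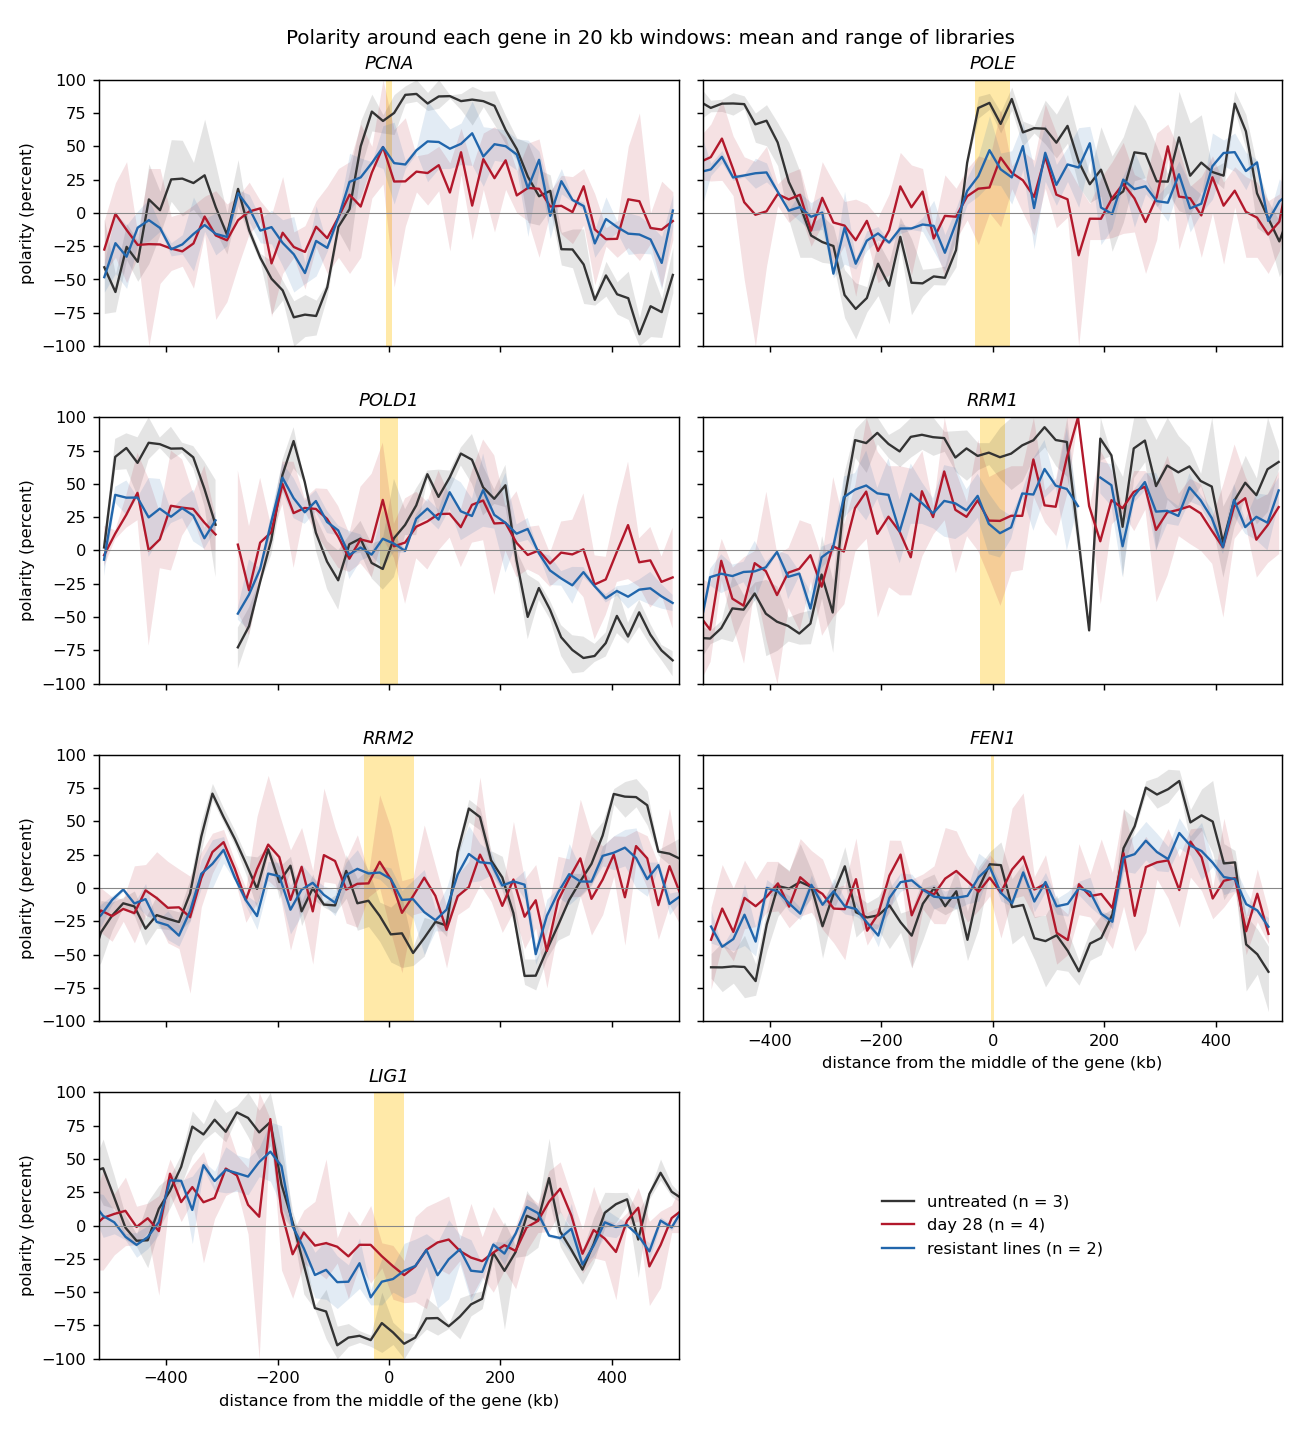
Polarity (percent) in 20 kb windows against the distance from the middle of each gene (kb), as the mean (line) and range (shading) of the 3 untreated, 4 day 28 and 2 resistant libraries; the yellow bar is the gene. The untreated profiles swing between steep rises and falls, and the day 28 and resistant means lie nearer to 0 over most windows.

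In untreated cells the clamp and polymerase genes lay beside or on initiation zones, and RRM2 lay nearer to one than PCNA did. The share of all genes lying this near to a zone is not given here. PCNA (gene ID 5111, chr20:5114953-5126622, minus strand) lay 72.9 kb to the right of a zone across which polarity rose by 157 ± 10.4 points (SD, n = 3), and rightward forks crossed it. POLE (5426, chr12:132623762-132687342, minus strand) lay 30.1 kb to the right of a zone with a rise of 129 ± 15.0 points (SD, n = 3). The gene POLD1 (5424, chr19:50384323-50418018, plus strand) had an initiation zone within it, with a rise of 65.7 ± 5.74 points (SD, n = 3). The zone was placed on a profile smoothed over 80 kb, which is wider than the gene. POLD1 also shares its windows with NR1H2 and SPIB, so the zone cannot be assigned to POLD1 itself. The mean polarity of the gene averaged near 0, over untreated libraries of both signs.

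The genes of Okazaki fragment processing differed from each other. LIG1 (3978, chr19:48115445-48170344, minus strand) lay in a long leftward stretch, between an initiation zone 221.9 kb to its right (rise 91.4 ± 5.69 points, SD, n = 3) and a termination zone 143.7 kb to its left (change -163 ± 5.61 points, SD, n = 3). FEN1 (2237, chr11:61792911-61797238, plus strand) lay 25.7 kb to the left of a termination zone (change -58.8 ± 16.9 points, SD, n = 3) in a stretch of weak polarity. Of the reductase genes, RRM1 (6240, chr11:4094685-4138932, plus strand) lay 262.6 kb to the right of an initiation zone with a rise of 140 ± 17.2 points (SD, n = 3), in a rightward stretch. RRM2 (6241, chr2:10122568-10211010, plus strand) lay 62.1 kb to the left of a zone with a rise of 83.7 ± 15.0 points (SD, n = 3), and leftward forks crossed it. These zones were called on the same untreated libraries, so their untreated rises are a description.

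By distance from 0, untreated mean polarity ordered the genes as LIG1 at percentile 94.96 of 13656 genes, POLE at 92.4, PCNA at 87.8, RRM1 at 87.4, RRM2 at 44.6, FEN1 at 27.9 and POLD1 at 4.01. The ranges of LIG1 and POLE overlapped in size (-89.0 to -78.1 at LIG1, 76.1 to 81.7 at POLE), and so did those of PCNA and RRM1. Forks ran with transcription at RRM1, FEN1 and LIG1 and against it at PCNA, POLE and RRM2; at POLD1 the untreated values lay on both sides of 0. Of all genes with a strand, 53.5% (7304 of 13656) were crossed in the direction of transcription. With the sign of polarity turned this would be 46.5%, and with and against would be exchanged at each of the 7 genes.

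At day 28 polarity lay nearer to 0 than in untreated cells at 4 of the 7 genes by the test: LIG1, POLE, RRM1 and RRM2. Of all genes tested, 33.5% were called in this comparison, every one toward 0 (limma, adjusted p under 0.05, 5708 of 17058). Of genes whose untreated polarity was at least 70 from 0, a limit chosen after the values were seen, 88.0% were called, against 3 of the 4 such members. PCNA, POLD1 and FEN1 did not pass.

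**Figure D2:**
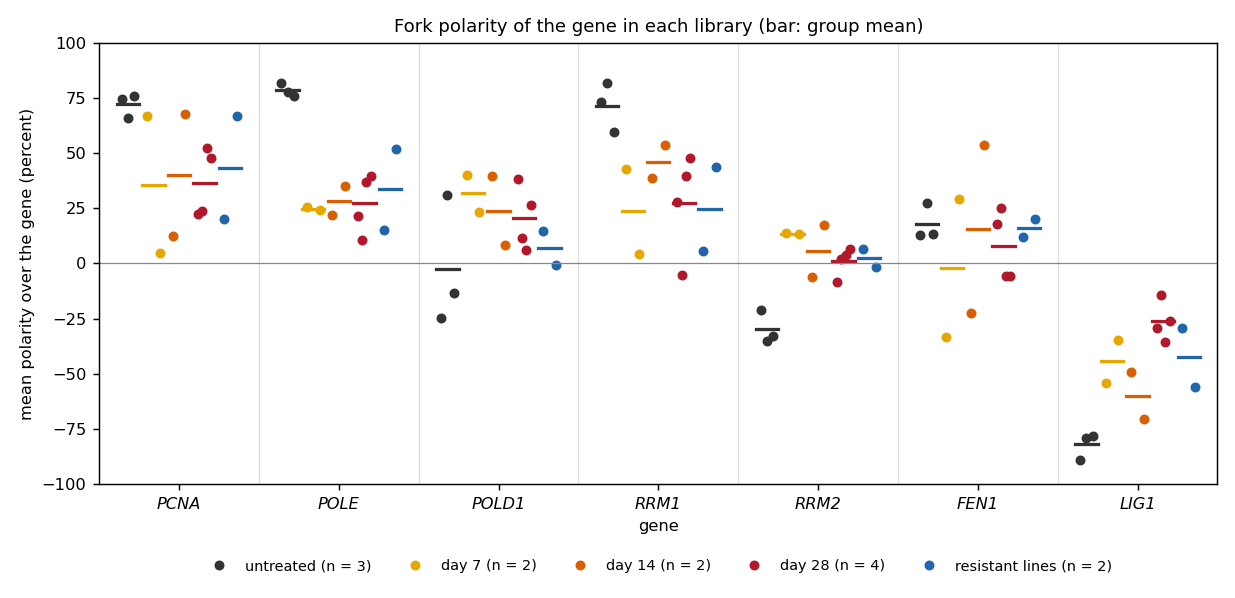
Mean polarity over each gene (percent, vertical axis) in each of the 13 libraries (points, coloured by group; bars are group means). At POLE, RRM1, RRM2 and LIG1 the 3 untreated points stand apart from all 8 points of days 7 to 28; at PCNA, POLD1 and FEN1 they do not.

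At PCNA the untreated libraries had mean polarities of 74.4, 66.1 and 75.7, day 7 had 66.7 and 4.81, day 14 had 12.5 and 67.9, and day 28 had 22.2, 23.8, 52.2 and 47.9 (replicates 1 to 4). Line 5 had 20.0 and line 10 had 66.8. The day 28 libraries lay below all untreated ones, whereas 1 library each of day 7, day 14 and the resistant lines lay at the untreated level. The day 28 mean was 36.5 ± 15.7 (SD, n = 4) against 72.1 ± 5.21 (SD, n = 3), a difference of -35.5 (SE 17.4, limma adjusted p = 0.128). PCNA passed when limma weighted the libraries by their estimated precision, called array weights here (difference -34.7, adjusted p = 0.0334), as it did with only the day 28 and untreated libraries in the fit (adjusted p = 0.0213). Leaving out day 28 replicates 3 and 4 gave a difference of -49.0 (adjusted p = 0.105). The gene covers 2 windows, shared in part with TMEM230 and CDS2, and day 7 replicate 1 had a value in 1 of them.

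At POLE the untreated libraries had 81.7, 77.6 and 76.1, day 7 had 25.5 and 24.0, day 14 had 21.7 and 35.1, and day 28 had 21.6, 10.6, 36.9 and 39.8. Line 5 had 15.3 and line 10 had 51.8. All 10 drug-exposed libraries lay below the lowest untreated one, and all stayed positive. POLE fell by 51.2 at day 28 (SE 11.04, limma adjusted p = 0.00960), to 27.2 ± 13.7 (SD, n = 4), and fell by 53.7 at day 7 (SE 13.2, adjusted p = 0.0364). The day 14 difference of -50.0 had an adjusted p of 0.0563 and that of the resistant lines, -44.9, one of 0.153. Without day 28 replicates 3 and 4 the day 28 difference was -62.4 (adjusted p = 0.0170).

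POLD1, on which the smoothed profile placed an initiation zone, was the gene whose untreated libraries disagreed most. They had -24.7, 31.1 and -13.5, day 7 had 40.0 and 23.4, day 14 had 39.6 and 8.33, and day 28 had 38.1, 11.5, 6.00 and 26.7. Line 5 had 14.8 and line 10 had -0.883. The groups overlapped throughout. The day 28 mean of 20.6 ± 14.6 (SD, n = 4) differed from the untreated -2.37 ± 29.5 (SD, n = 3) by 22.9 (SE 13.7, limma adjusted p = 0.208). POLD1 was the 1 member whose day 28 mean was farther from 0 than its untreated mean.

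LIG1 had the strongest polarity of the 7 in untreated cells and moved toward 0 at day 28. The untreated libraries had -89.0, -78.9 and -78.1, day 7 had -54.0 and -34.7, day 14 had -49.2 and -70.6, and day 28 had -29.0, -14.5, -35.6 and -25.9. Line 5 had -29.1 and line 10 had -55.9. No drug-exposed library reached the untreated range, and day 14 replicate 2 came nearest to it. The day 28 mean was -26.3 ± 8.83 (SD, n = 4) against -82.0 ± 6.08 (SD, n = 3), a difference of 55.7 (SE 10.98, limma adjusted p = 0.00953). Differences of 37.7 at day 7 (adjusted p = 0.0812), 22.1 at day 14 (adjusted p = 0.2995) and 39.5 in the resistant lines (adjusted p = 0.155) did not pass. Without day 28 replicates 3 and 4 the day 28 difference was 60.3 (adjusted p = 0.0193). LIG1 shares windows with PLA2G4C and ZSWIM9.

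FEN1 lies in 1 window, which it shares with MYRF, TMEM258 and FADS1, so its value belongs to that window and not to FEN1 alone. The untreated libraries had 12.8, 27.3 and 13.5, day 7 had -33.3 and 29.4, day 14 had -22.2 and 53.8, and day 28 had 17.6, 25.0, -5.66 and -5.88. Line 5 had 11.8 and line 10 had 20.0. Values of both signs occurred at day 7, day 14 and day 28, and the groups overlapped. The day 28 difference of -10.1 (SE 17.4) did not pass (limma adjusted p = 0.681), and it was 3.45 without replicates 3 and 4.

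At RRM1 the untreated libraries had 73.2, 81.7 and 59.6, day 7 had 42.9 and 4.33, day 14 had 38.9 and 53.4, and day 28 had 27.8, -5.39, 39.7 and 47.6. Line 5 had 5.44 and line 10 had 43.9. All drug-exposed libraries lay below the lowest untreated one, and day 28 replicate 2 was the 1 library with negative polarity. RRM1 fell by 44.1 at day 28 (SE 14.7, limma adjusted p = 0.0350), to 27.4 ± 23.3 (SD, n = 4). The call was lost without any 1 of the 3 untreated libraries, without day 28 replicate 1 or without replicate 2. It was also lost with each gene's own spread only (adjusted p = 0.0718), with the replicate number as a block (0.0598) and with windows valued in all 13 libraries (0.0655). Without day 28 replicates 3 and 4 the difference was -60.3 (adjusted p = 0.0285). Of the 3 windows over RRM1, partly shared with STIM1, 1 had a value in all 13 libraries.

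At RRM2 polarity was leftward in untreated cells (-20.9, -35.0 and -32.8) and had no shared sign over the drug-exposed libraries. Day 7 had 13.7 and 13.3, day 14 had -5.94 and 17.4, and day 28 had -8.52, 2.22, 3.82 and 6.66. Line 5 had 6.44 and line 10 had -1.59. The untreated libraries lay below all others. The day 28 mean was 1.04 ± 6.64 (SD, n = 4) against -29.6 ± 7.60 (SD, n = 3), a difference of 30.6 (SE 8.45, limma adjusted p = 0.0175). At day 7 the mean of 13.5 ± 0.277 (SD, n = 2) lay past 0, with a difference of 43.1 (SE 10.1, adjusted p = 0.0330). The day 28 call was lost without day 28 replicates 3 and 4 (difference 26.4, adjusted p = 0.0917), without untreated replicate 2 or untreated replicate 3, and with the replicate number as a block (adjusted p = 0.0903).

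Across the groups, 2 of 7 members were called at day 7 (POLE and RRM2), where 7.70% of all genes were, and 0 of 7 at day 14, where 3.10% were. In the resistant lines 0 of 7 were called, and 0.00% of all genes; 4 members (POLE, LIG1, RRM1 and RRM2) and 4061 genes of 17058 (23.8%) had an unadjusted p under 0.05 in limma, and with array weights 3 members (POLE, LIG1 and RRM2) and 1751 genes (10.3%) were called. At day 14 the members with an unadjusted p under 0.05 were POLE and RRM2, 2 of 7 against 25.6% of all genes. Both day 7 calls were lost without any 1 untreated library, without either day 7 library and with array weights. Every comparison with untreated cells shares the same 3 control libraries. The day 28 and untreated libraries did not overlap at 5 of the 7 genes, against 47.5% of all genes, and the 8 libraries of days 7 to 28 did not overlap the untreated ones at 4 (POLE, RRM1, RRM2 and LIG1), against 23.5%. The resistant and untreated libraries did not overlap at those 4 genes either, against 55.1% of all genes.

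The median distance of mean polarity from 0 over the 7 genes was 71.5 untreated, 24.8 at day 7, 28.4 at day 14, 26.3 at day 28 and 24.7 in the resistant lines. Over all 17058 genes it was 33.8, 19.9, 21.9, 12.8 and 16.9. When each library was divided by its genome-wide amplitude and fitted with array weights, no gene passed at day 28 (0 of 17058 in limma, with 1306 at an unadjusted p under 0.05). The differences at day 28 were then -3.08 at POLE, 11.03 at LIG1, 34.9 at RRM2, and, with the direction turned, 2.93 at RRM1 and 34.7 at PCNA. On this scale POLE, LIG1 and RRM1 differed from their untreated polarity by at most 11.03 points, with limma adjusted p-values of 0.868 to 0.986. RRM2 and PCNA differed by more. At PCNA the division carried day 28 values past the possible range of polarity, as in replicate 4 (47.9, at a relative amplitude of 0.356). The values of POLD1 and FEN1 on this scale are not given here. Division by the day 28 amplitudes of 0.278 to 0.482 also enlarges the spread of these libraries. The high p-values therefore do not show that polarity was alike.

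The resistant lines were compared with day 28 directly. No member passed in any measure, and 0.00% of all genes did in mean polarity, step or amplitude; 278, 302 and 267 genes (1.63%, 2.36% and 1.83%) had an unadjusted p under 0.05 in limma, none of them a member. The differences in mean polarity were 6.32 at POLE (SE 12.5), -16.2 at LIG1 (SE 12.5), -2.76 at RRM1 (SE 16.6) and 1.38 at RRM2 (SE 9.58). The test therefore does not show that the lines and day 28 cells are alike. Line 10 had stronger polarity than line 5 at PCNA, POLE, RRM1, FEN1 and LIG1 and had the higher amplitude genome-wide. With 1 library per line this difference was not tested.

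The step across a gene compares the polarity to its right with that to its left. A zone beside the gene can therefore raise the step without a change of direction within the gene. In untreated cells the step was clearly positive at POLE, which lies next to an initiation zone, with 82.8, 64.1 and 79.3 points. Day 7 had 43.1 and 25.0, day 14 had 18.2 and 38.8, day 28 had 34.0, 1.27, 43.0 and 16.9, line 5 had 11.8 and line 10 had 68.2. All 8 libraries of days 7 to 28 lay below the untreated ones, and line 10 lay within their range. POLE fell by 51.6 at day 28 (SE 16.3, limma adjusted p = 0.0237), and was the 1 of 7 members called, where 23.4% of all genes were. That call was lost without any 1 untreated library, without day 28 replicate 2 or without replicate 4, and with each gene's own spread only (adjusted p = 0.0610) or the replicate block (0.0662); without both replicates 3 and 4 the difference was -57.8 (adjusted p = 0.0463).

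**Figure D3:**
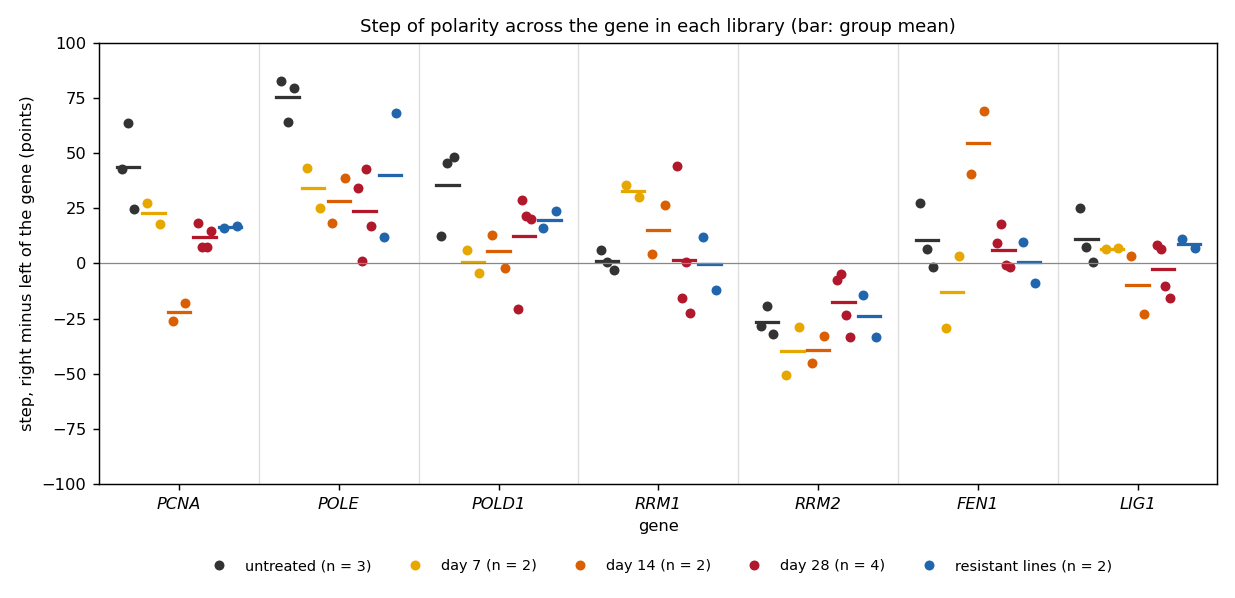
Step of polarity across each gene (points, mean of 3 windows to its right minus that of 3 windows to its left) in each of the 13 libraries (points, coloured by group; bars are group means). The steps at POLE shrink from 64.1 to 82.8 untreated to 1.27 to 43.1 at days 7 to 28, and at PCNA the 2 day 14 libraries are the only ones below 0.

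At PCNA the untreated steps were 43.0, 63.5 and 24.7, those of day 7 27.5 and 17.8, and those of day 28 18.3, 7.39, 7.47 and 14.7. Both day 14 libraries had a negative step, -26.0 and -18.0, and the resistant lines had 16.3 and 16.8. PCNA fell by 65.7 at day 14 (SE 16.3, limma adjusted p = 0.0214), where 4.86% of all genes were called, and this call was lost without untreated replicate 1, untreated replicate 2 or day 14 replicate 1. The day 28 difference of -31.8 did not pass (adjusted p = 0.0868), although the day 28 steps lay below all untreated ones; without day 28 replicates 3 and 4 it was -30.9 (adjusted p = 0.193). With 5 windows each side, PCNA, POLE and POLD1 passed at day 28 (3 of the 6 members then tested), by -52.7 at PCNA and -34.7 at POLD1. Of all genes 41.0% (5590 of 13640) were called under this setting.

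The day 28 and untreated steps did not overlap at 2 of the 7 genes (PCNA and POLE), against 38.5% of all genes, those of days 7 to 28 and untreated at 1 (POLE), against 17.9%, and those of the resistant lines and untreated at 1 (PCNA), against 44.9%. The other members had no call in step. FEN1 had untreated steps of 27.2, 6.36 and -1.63 and day 14 steps of 40.6 and 68.9, a difference of 44.1 (SE 16.8, limma adjusted p = 0.109). POLD1 had untreated steps of 12.5, 45.5 and 48.1 and a day 28 difference of -22.9 (adjusted p = 0.261). RRM1, in the middle of a rightward stretch, had untreated steps between -3.15 and 6.00. RRM2 had untreated steps of -31.9 to -19.1, and LIG1 of 0.871 to 25.2, with day 28 differences of 9.15 and -13.9. At day 7, 0 of 7 members were called in this measure, where 8.54% of all genes were; 1 member (POLE) and 26.9% of all genes had an unadjusted p under 0.05; in the resistant lines 0 of 7 and 0.00% were, and 0 members and 1911 genes of 12806 (14.9%) had an unadjusted p under 0.05.

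Beyond the gene bodies, the loci as a whole lost amplitude. All 6 members with a locus amplitude were lower than untreated at day 28, as were 99.6% of all genes tested, so this count shows nothing particular to these genes. At day 7, day 14 and in the resistant lines 94.8%, 87.3% and 97.1% of all genes were called in limma, and again 6 of 6 members. The p-values of this fit are too small, because the amplitude of a library moves at all its genes together.

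**Figure D4:**
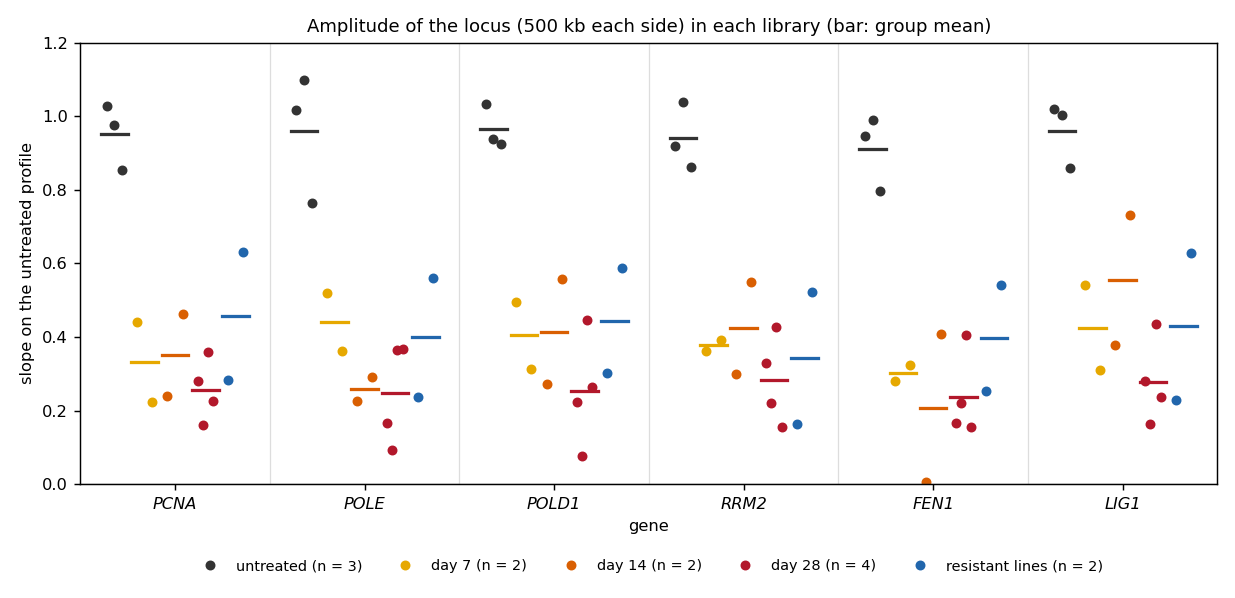
Locus amplitude (slope of a library on the untreated profile within 500 kb of the gene, vertical axis from 0) of 6 genes in each of the 13 libraries (points, coloured by group; bars are group means). Untreated libraries lie between 0.764 and 1.10 and day 28 libraries between 0.0763 and 0.445; RRM1 is absent because 16 of its windows had a value in all libraries, under the minimum of 25.

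At the PCNA locus the untreated slopes were 1.03, 0.975 and 0.853, and the day 28 slopes 0.280, 0.162, 0.360 and 0.227. The POLE locus went from 1.02, 1.10 and 0.764 to 0.168, 0.0918, 0.366 and 0.368. At POLD1 the day 28 slopes were 0.223, 0.0763, 0.445 and 0.265, against 1.03, 0.940 and 0.925 untreated. The groups did not overlap at any of the 6 loci, nor did 98.8% of all genes. Day 28 means were 25.9% of the untreated mean at POLE, 26.0% at FEN1, 26.2% at POLD1, 27.0% at PCNA, 29.0% at LIG1 and 30.1% at RRM2. When day 28 replicates 3 and 4 were left out they were lower at POLE (13.5%) and POLD1 (15.5%), and 21.3% at FEN1, 23.2% at PCNA, 23.1% at LIG1 and 29.2% at RRM2; all 6 were still called. The median over these 6 was 0.255, against 0.289 over all 14599 genes.

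For a single locus the two-sided exact permutation test of 4 day 28 against 3 untreated libraries gave p = 0.0571, the smallest it can give, at each of the 6 loci and at RRM1. With all 8 libraries of days 7 to 28 the exact permutation test gave p = 0.0121, again the smallest possible, at all 7. The smallest value is reached wherever the groups do not overlap, as at day 28 for 98.8% of all genes tested. It therefore shows nothing particular to these genes; the share for the 8 libraries is not given here. RRM1, over the 16 windows it has, had a slope of 0.981 ± 0.195 (SD, n = 3) untreated and 0.447 ± 0.140 (SD, n = 4) at day 28. The resistant lines had slopes of 0.164 to 0.301 in line 5 and 0.523 to 0.631 in line 10 over the 6 tested loci, in the order of the genome-wide amplitudes of 0.304 and 0.684. The resistant calls rest on line 5: without it 0 of 6 members and 0 genes passed in limma, with 3338 genes at an unadjusted p under 0.05. Without day 14 replicate 1, 0 of 6 members and 35 of 14904 genes (0.235%) passed at day 14; the difference at POLE was then -0.675 (adjusted p = 0.0690), against -0.701 with both libraries, and that at LIG1 -0.228, against -0.405. Without day 7 replicate 2, 3 of 6 members and 29.8% of all genes passed at day 7.

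**Figure D5:**
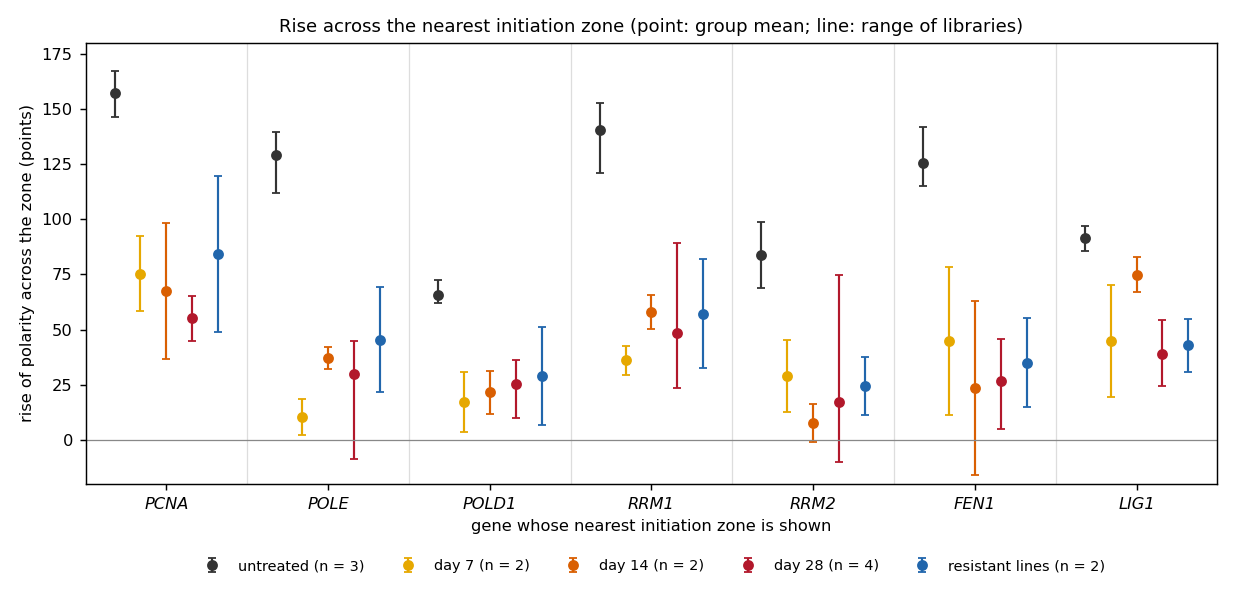
Rise of polarity (points) across the initiation zone nearest to each gene, as the mean (point) and range (line) of the libraries of each group. The untreated rises of 62.0 to 167 points are those on which the zones were called; in the other groups the means lie between 7.60 and 84.2 points.

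The rises across the nearest initiation zones were smaller under osimertinib; they are a description, since the untreated libraries were used to call the zones. Across the zone left of PCNA the rise was 55.5 ± 8.93 points at day 28 (SD, n = 4), and 84.2 ± 50.1 in the resistant lines (SD, n = 2). It was 29.9 ± 25.8 at POLE, 25.6 ± 11.3 within POLD1, 48.7 ± 30.7 at RRM1, 17.4 ± 39.2 at RRM2, 26.9 ± 16.7 at FEN1, whose nearest zone lies 218.4 kb to its right, and 39.0 ± 12.3 at LIG1 (SD, n = 4). The means over day 28 replicates 1 and 2 alone were 52.3 at PCNA, 18.1 at POLE, 28.3 within POLD1, 57.7 at RRM1, 42.6 at RRM2, 16.4 at FEN1 and 45.6 at LIG1. The rise next to POLE was 2.36 and 18.8 points in the 2 day 7 libraries and ran from -8.78 to 44.9 at day 28. The termination zone left of LIG1 changed by -40.2 ± 28.7 at day 28 (SD, n = 4), and that right of FEN1 by -3.02 ± 16.3. Without replicates 3 and 4 these changes were -24.8 and 3.54.

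Most windows around the genes moved toward 0 together. Of windows with untreated polarity of at least 40 from 0, the day 28 mean was nearer to 0 in 31 of 31 at PCNA, 30 of 30 at POLE, 34 of 34 at POLD1, 19 of 19 at FEN1, 26 of 27 at LIG1, 46 of 46 at RRM1 and 12 of 13 at RRM2. The sign was turned in 1 to 4 of them per locus. Over day 28 replicates 1 and 2 alone the counts were 31 of 31, 30 of 30, 33 of 34, 19 of 19, 26 of 26, 40 of 46 and 12 of 13 in the same order, with the sign turned in 2 to 11. The median distance from 0 over all windows of the locus went from 65.6 to 28.6 at RRM1 and from 25.5 to 14.6 at RRM2, the loci with the strongest and weakest untreated polarity. Windows chosen for strong untreated values tend to lie nearer to 0 in any other library, so these counts are a description.

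Other genes of the same processes were read from 3 lists. Of 22 further genes of fork DNA synthesis (polymerase subunits, primase, clamp loader, RPA and RNase H2), 10 of 22 were called in mean polarity at day 28, all toward 0, with a median distance from 0 of 33.5 untreated and 7.84 at day 28. POLE4, a small subunit of polymerase epsilon, went from 77.3 ± 10.1 (SD, n = 3) to 18.0 ± 10.8 (SD, n = 4; limma adjusted p = 0.00960). The catalytic primase subunit PRIM1 went from 76.9 to 17.9 (adjusted p = 0.0127), the large primase subunit PRIM2 from 68.1 to 24.2 (adjusted p = 0.0228) and POLE3 from 51.0 to 5.11 (adjusted p = 0.0388). These values stand beside 33.5% called among all genes. In step, 5 of 16 tested were called at day 28, where 23.4% of all genes were: RFC5, a clamp loader subunit, fell by 82.4 and RPA2 fell by 61.2, while the negative steps at the nuclease gene DNA2 and at RNASEH2C moved toward 0 by 75.6 and 42.5. Without day 28 replicates 3 and 4, 4 of 22 were called in mean polarity, where 24.4% of all genes were, and 4 of 16 in step, where 18.9% were; PRIM2, POLE3 and, in step, RNASEH2C were among those lost (adjusted p = 0.0566, 0.0922 and 0.0567).

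Of 20 genes of the fork helicase and fork progression, 16 had a mean polarity in every library and 4 of these were called at day 28, where 33.5% of all genes were. CHTF18, of the alternative clamp loader, went from 67.8 to 19.4 and GINS1, of the helicase complex, from 81.6 to 33.5 (limma adjusted p = 0.0287 and 0.0288). The helicase activator CDC45 went from -66.9 to -26.5 and WDHD1 from -48.1 to -10.8 (adjusted p = 0.0197 and 0.0346). In step 1 of 9 was called at day 28, MCM2, which fell by 53.6, where 23.4% of all genes were called. At day 7, 1 of 16 was called in mean polarity, DSCC1, from -28.2 to 23.6 (adjusted p = 0.0324), where 7.70% of all genes were. CHTF18, WDHD1 and the step of MCM2 were no longer called without day 28 replicates 3 and 4 (adjusted p = 0.0562, 0.0807 and 0.172).

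Of 23 nucleotide supply genes, 21 had a mean polarity in every library and 9 were called at day 28, where 33.5% of all genes were. The deoxycytidine kinase gene DCK went from 84.8 to 29.9, DHODH of pyrimidine synthesis from 74.0 to 21.5 and GART of purine synthesis from 70.8 to 19.1 (limma adjusted p = 0.0102, 0.0188 and 0.0249). At day 7, 2 of 21 were called, DCK and CMPK1, to 23.2 and 13.1, where 7.70% of all genes were. In step, 7 of 19 were called at day 28, where 23.4% of all genes were, among them NME1, SAMHD1, DUT and TK1 with differences of -79.0, -67.7, -66.7 and -57.9. Without day 28 replicates 3 and 4, 7 of 22 then tested were called in mean polarity and 5 of 19 in step. The shares of all genes called in this setting are lower too, and are those given above with the fork DNA synthesis genes. TK1 was no longer called in step (limma adjusted p = 0.104), and the mean polarity of GART was -1.65 instead of 19.1. At day 14 no gene of the 3 lists was called in mean polarity. An unadjusted p under 0.05 in limma was found for 6 of 22, 2 of 16 and 8 of 21, against 25.6% of all genes. In step PRIM1, NME1 and SAMHD1 were called at day 14 (differences of -63.6, -82.4 and -72.8). These were 1 of 16, 0 of 9 and 2 of 19 in the order of the lists, against 4.86% of all genes. RNASEH2C and SAMHD1 were called in step at day 7 (74.2 and -66.0). These were 1 of 16, 0 of 9 and 1 of 19, against 8.54% of all genes.

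For each member the 2 genes on other chromosomes with the smallest root mean square difference of mean polarity over the 13 libraries were taken. Nearest to POLE were EFCAB8 on chromosome 20 (6.28 points) and TMEM217 on chromosome 6 (7.11), where the median over 16080 genes was 49.8. Nearest to LIG1 were ATP13A4 (6.12) and KIF15 (6.56), both on chromosome 3, and nearest to RRM1 were ZNF471 on chromosome 19 (6.65) and OTUD1 on chromosome 10 (9.94). For PCNA these were C8B on chromosome 1 (9.06) and NUP35 on chromosome 2 (9.86), and for RRM2 CLMP on chromosome 11 (7.34) and CTIF on chromosome 18 (7.60). For POLD1 they were TBATA on chromosome 10 (10.9) and ARID1A on chromosome 1 (12.3), and for FEN1 SEMA4B and CD276 (12.0 and 12.9), both on chromosome 15. At EFCAB8 polarity went from 81.1 to 30.8 at day 28 and at ATP13A4 from -84.1 to -26.6, close to the members they were matched to, as the matching fixes.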

How the data were processed

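Strand polarity was measured by TrAEL-seq in 13 libraries. The deposited values are a score, read from its range as the strand difference in percent of the reads (-100 to 100) per 20 kb window every 10 kb; for the positive strand, read counts and read minimum nothing is given in the sources used here. Per the submitters' processing notes the tools were Trim Galore 0.6.5 and Bowtie2 2.4.1, with GRCm38 and GRCh38 as builds. Samples were grouped by their titles.

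Genes were placed with the RefSeq table of GRCh38.p14. Non-overlapping 20 kb windows were used. The step needed 2 of 3 windows on each side, and the locus amplitude at least 25 windows with a value in all libraries. Zones were unbroken changes across 0 of at least 40 points in the untreated mean smoothed over 4 windows. Each measure was fitted over all genes with limma 3.58.1 (lmFit, eBayes with a trend), with all 13 libraries in 1 fit, 5 contrasts and Benjamini-Hochberg adjustment at 0.05. Single loci were compared by exact permutation. On simulated day 28 data, limma recovered 48 of 100 genes changed by 60 points in mean polarity (17058 genes) and 2 of 100 changed by 30 points. For the step (12806 genes) it recovered 25 of 100 and 0 of 100. Only 100 genes were changed at each size, whereas 33.5% of all genes were called in mean polarity and 23.4% in step at day 28. The adjusted threshold is stricter where few genes change, so these recoveries do not give the power of the tests reported. Promoter windows and names came from RefSeq.

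All members were named, and from each list at most the 4 called genes with the largest change per comparison and measure; 1 of these is not reported here. The members and lists were chosen with earlier results of these data known. The alternatives limma without eBayes, exact permutation and the RRM1 locus below the window minimum were chosen after seeing the data.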

Additional observations from a re-analysis of the deposited data

Results flagged for a closer look

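The step across POLD1 in day 28 replicate 1 was -20.7 points, whereas replicates 2 to 4 had 28.7, 21.4 and 20.3; its gap to the nearest exceeded the limit for 4 values. Of 20 such checks of the day 28 libraries, chance flags about 1 in 20.

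The step across FEN1 lay below the mean untreated step in both day 7 libraries (mean difference -23.6 points) and both resistant libraries (-10.1), and above it in both day 14 libraries (44.1). The difference between these groups was not tested. The untreated steps themselves ran from -1.63 to 27.2, and the groups share these controls.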

How the results depend on the processing

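The day 28 calls at POLE and LIG1 in mean polarity were kept when any 1 library was left out and under every alternative except division by amplitude. Leaving out 1 library at a time gave 0 to 2 called members at day 7 and 2 to 4 at day 28 in mean polarity, 0 to 1 at day 14 and 0 to 1 at day 28 in step, and 3 to 7, 0 to 7, 6 to 7 and 0 to 7 in locus amplitude at day 7, day 14, day 28 and in the resistant lines; the others stayed at 0. RRM1 enters the amplitude fit once day 7 replicate 1 is left out. Over all genes the same exclusions gave 0 to 2114 calls at day 7 in mean polarity and 48 to 1097 at day 14 in step. In locus amplitude they gave 4355 to 17019 at day 7, 35 to 15719 at day 14, 14370 to 18108 at day 28 and 0 to 17440 in the resistant lines. The member counts therefore moved with the counts over all genes. In mean polarity the count at day 7 (2 members) became 0 with the replicate block, array weights or division by amplitude, and 1 without day 28 replicates 3 and 4, with each gene's own spread or with windows valued in all 13 libraries. That at day 14 (0) became 1 with day 28 replicates 3 and 4 placed at day 7. That at day 28 (4) became 2 with the replicate block (RRM1 and RRM2 lost) and 0 after division by amplitude. In the resistant lines the count (0) became 3 with array weights. Changes small relative to the count are not listed, such as from 4 to 3 at day 28 without replicates 3 and 4 (RRM2 lost). In step the count at day 7 (0) became 2 with 5 windows each side. At day 14 (1) it became 0 with the replicate block, only the 2 groups compared, array weights, each gene's own spread, division by amplitude, all 3 windows required or 2 windows each side, and 3 with 5 windows. At day 28 (1) it became 0 with the replicate block, division by amplitude, all 3 windows required or 2 windows each side, 2 with array weights and 3 with 5 windows; with all 3 or with 2 windows, 4 of the 7 members were tested, not PCNA or POLE, which hold the calls, so these counts of 0 say nothing about them. With each gene's own spread the day 28 count stayed at 1 because POLE lost its call (limma adjusted p = 0.0610) and PCNA gained one (0.0460). The shares of all genes called under most of these alternatives are not given here. These member counts therefore show nothing particular to the 7 genes. No pairing by replicate number was seen. Correlations of deviations from group means were -0.114 to 0.101 between libraries of the same number and -0.210 to 0.210 between others. In groups of 2 libraries the deviations mirror each other, so these correlations cannot exclude pairing. With the replicate block, which leaves the resistant lines out, 1874 of all genes were called in mean polarity at day 28 instead of 5708. Counts over all genes in mean polarity and step also moved with the window rule and weights, at day 28 from 0 after division by amplitude to 4909 in step with only the 2 groups compared and 5590 with 5 windows; without a library they ranged from 1182 to 6418 in mean polarity and from 1068 to 4120 in step. The cause of these changes was not tested.

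With each library divided by its genome-wide amplitude and array weights, the difference from untreated turned its sign to -10.8 at LIG1 (mean, day 7), 15.6 at RRM1, -29.4 at LIG1 (mean, day 14), 34.7 at PCNA, 2.93 at RRM1 (mean, day 28), 9.82 at PCNA, 17.2 at FEN1, -5.98 at LIG1 (mean, resistant lines), 5.24 at PCNA, 1.91 at LIG1 (step, day 7), 15.8 at POLD1, -8.98 at RRM1, -21.9 at RRM2 (step, day 28) and 10.9 at POLD1, 8.79 at RRM1, -20.8 at RRM2, 10.3 at LIG1 (step, resistant lines). Without day 28 replicates 3 and 4, and equally with both placed at day 7, the difference from untreated turned its sign to 3.45 at FEN1 (mean, day 28) and 3.07 at FEN1 (step, day 28). With 5 windows each side, the difference from untreated turned its sign to 0.351 at FEN1 (step, day 7), 0.548 at RRM2 (step, day 14), -16.9 at RRM2, 10.1 at FEN1 (step, day 28) and -10.9 at RRM2, 8.42 at FEN1, 7.64 at LIG1 (step, resistant lines). With windows every 10 kb, the difference from untreated turned its sign to 3.16 at LIG1 (step, day 7) and 2.49 at FEN1 (step, day 28). With 2 windows each side, the difference from untreated turned its sign to 18.0 at LIG1 (step, day 7) and -1.06 at RRM2, 4.33 at LIG1 (step, resistant lines). With array weights alone, the difference from untreated turned its sign to -5.39 at RRM1 (step, day 28). Leaving out 1 library at a time turned the sign of 10 differences, none of them called, which ranged over -51.2 to 11.5 at FEN1 (mean, day 7), -40.1 to 36.0 at FEN1 (mean, day 14), -1.82 to 26.1 at POLD1 (mean, resistant lines), -6.10 to 2.72 at FEN1 (mean, resistant lines), -9.73 to 2.42 at LIG1 (step, day 7), -13.6 to 8.55 at RRM1 (step, day 28), -10.5 to 3.90 at FEN1 (step, day 28), -13.3 to 10.5 at RRM1 (step, resistant lines), -7.00 to 12.2 at RRM2 (step, resistant lines) and -7.33 to 4.83 at LIG1 (step, resistant lines). Of the values of single members and the counts over all genes, 841 under alternatives and 1139 without 1 library were classed as unchanged. For a single member this means that direction and side of the threshold were kept. The share of single members among these values is not given here. Depth cannot be judged from these values, and the number of libraries limits the precision.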
